A study of Mus musculus with 168 samples.

Results

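The cortex of 8 Q175 mice was compared directly with the cortex of 8 Q140 mice at 10 months of age, 16 of the 168 libraries of the series, chosen by their titles alone. All 16 mice, 4 females and 4 males of each genotype, were heterozygous knock-in (HET) animals of strain C57BL/6. They carry 1 normal mouse Htt allele and 1 allele with a human HTT exon 1, and in both lines that exon is followed by mouse Htt under its own promoter. The CAG repeat is 140 in the Q140 line and 175 in the Q175 line, which arose from the Q140 line by spontaneous expansion of the repeat, so the comparison asks what the longer repeat adds on the same engineered allele. The 10-month Q20 knock-in mice (CAG 20) and wild type (WT) littermates of that line, 16 controls in all, were used to place both lines, and 8 Q140 and 8 Q175 mice of the same kind at each of 2 and 6 months were used to follow the difference with age. Every mouse shared its housing with mice of its own line, and the library names carry 1 animal code for the 4 females and 1 for the 4 males of each line, 4 codes in all. Genotype and that code therefore cannot be told apart. The library names also carry an L code that the labels do not explain, which was 7 for 6 Q140 and 4 Q175 libraries, 8 for 2 Q140 and 1 Q175 library, and 6 for the other 3 Q175 libraries. Library totals ran from 3842828 to 6047514 counts over the 16 mice (median 4926919). No RNA from the Htt gene is part of these data, so the genotype labels could not be checked against it.

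MicroRNAs are short RNAs cut from hairpin transcripts. Bases 2 to 8 of the mature RNA, the seed, pair with sites in messenger RNAs, most often in the 3′ untranslated region, and lower the stability and translation of the target. In the cortex some microRNAs are made mainly in neurons, and the Mir212 and Mir132 hairpins are known to be transcribed in response to neuronal activity. Other microRNAs in a dissected cortex come from glia, vessels, blood or the choroid plexus, the epithelium that lines parts of the ventricles and makes cerebrospinal fluid. Bulk tissue mixes all of them, and fewer cells of a type cannot be told apart from less RNA per cell.

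The mature sequences of the microRNAs that carry the results are shown here from RefSeq on build GRCm38.p6, 5′ to 3′, with the seed in capitals. The counts are per hairpin, so the arms of a hairpin are not separated, and no arm is shown for Mir467d. The pair miR-221-3p and miR-222-3p, from hairpins 504 bases apart on chromosome X, share the seed GCUACAU. The pair miR-132-3p and miR-212-3p, from hairpins 203 bases apart on chromosome 11, share the seed AACAGUC. The first 2 lines and the next 2 let these seeds be compared, and the others are microRNAs whose values are described one by one.
miR-221-3p, chrX:19146307-19146329, minus strand: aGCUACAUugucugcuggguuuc
miR-222-3p, chrX:19146901-19146923, minus strand: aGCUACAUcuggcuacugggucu
miR-132-3p, chr11:75173723-75173744, plus strand: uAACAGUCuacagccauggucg
miR-212-3p, chr11:75173443-75173464, plus strand: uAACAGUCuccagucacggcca
miR-615-3p, chr15:103014969-103014990, plus strand: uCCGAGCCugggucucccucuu
miR-667-3p, chr12:109720061-109720083, plus strand: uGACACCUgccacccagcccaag
miR-29b-3p, chr6:31063025-31063047, minus strand: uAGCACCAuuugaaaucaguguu
miR-1298-5p, chrX:147064918-147064939, plus strand: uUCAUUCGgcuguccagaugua
miR-448-3p, chrX:147158281-147158302, plus strand: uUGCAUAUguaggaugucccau
miR-204-5p, chr19:22750610-22750631, plus strand: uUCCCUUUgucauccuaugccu
Among the called microRNAs that have a mature sequence in the table, 14 of 15, the seed of miR-221-3p and miR-222-3p was the only one found in more than 1 hairpin. Some of these, such as Mir375 and Mir135b, lacked the sequence of the other arm, whose seed could not be compared.

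At 10 months, 15 of 324 microRNAs differed between Q175 and Q140 cortex at FDR 0.05 (4.63% of those tested), 4 higher (1.23%) and 11 lower (3.40%) in Q175. The test was edgeR's two-sided quasi-likelihood F test on TMM-normalized counts with sex as a covariate, and the Benjamini-Hochberg adjustment ran over all 324. An unadjusted p under 0.05 was reached by 54 microRNAs (16.7%). The rising microRNAs were Mir615, Mir667, Mir467d and Mir29b-1. The falling ones were Mir375, Mir221, Mir222, Mir135b, Mir132, Mir194-2, Mir344d-1, Mir204, Mir1298, Mir448 and Mir1912. Outside Mir615 and the last 4 of these, every called difference was at most 1.52-fold. The median difference over all 324 was 0.00 on the log2 scale, and 159 (49.1%) were positive. For 4 microRNAs (1.23%) the values of the 8 Q175 mice did not overlap those of the 8 Q140 mice, namely Mir615, Mir667 and Mir665, which were higher, and Mir221, which was lower. Of these, Mir665 did not pass FDR 0.05.

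**Figure D1:**
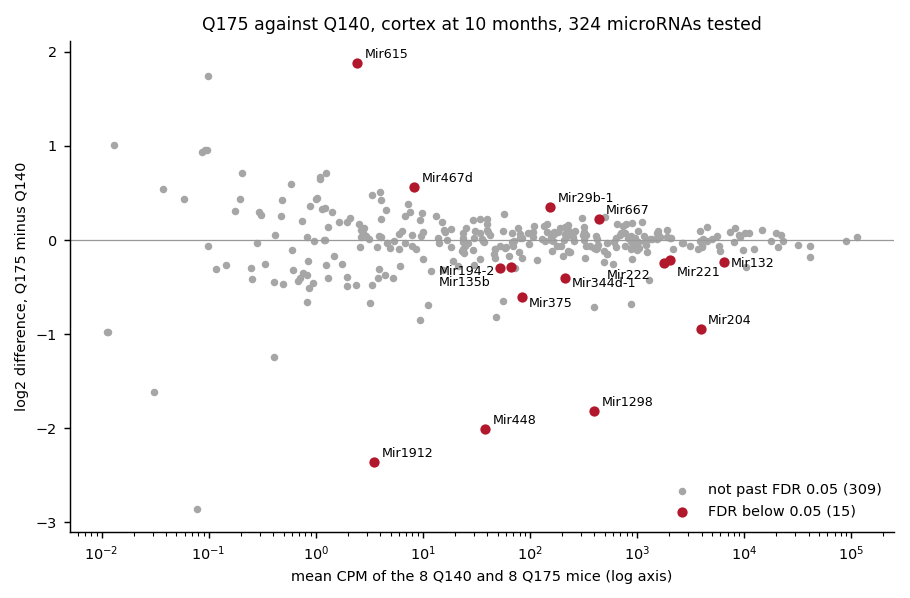
Each point is 1 of the 324 microRNAs tested, with its mean level over the 16 mice in counts scaled to library size (CPM, log axis) against the log2 difference of Q175 minus Q140, and red points are the 15 with an FDR below 0.05. Mir615 is the highest of the red points with a log2 difference of 1.88, and Mir1912, Mir448 and Mir1298 lie lowest of the red points, between -2.36 and -1.82.

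Mir615 gave the smallest p of the comparison. This hairpin lies in an intron of Hoxc5 on chromosome 15, at 103014910 to 103015001 on GRCm38, inside a cluster of Hox genes, which set position along the body axis and are mostly silent in the forebrain. Levels are given as TMM-normalized CPM. Mir615 stood between 0.728 and 1.23 CPM in the 8 Q140 mice (median 1.03) and between 2.18 and 6.28 CPM in the 8 Q175 mice (median 3.65). All Q175 mice were thus above all Q140 mice, and the lowest Q175 mouse was also above the highest of the 16 controls, at 1.94 CPM. The difference was 1.88 ± 0.23 (log2 ± SE, adjusted p = 6.09e-05, edgeR), a 3.69-fold higher level in Q175. These are few reads, 4 to 6 counts in each Q140 library and 10 to 28 in each Q175 library, and counting error limits the precision of the fold. With L code as a covariate the log2 difference was 1.93 (adjusted p = 4.94e-04), and among L code 7 libraries alone it was 1.81 (adjusted p = 0.00580). The other microRNAs of the Hox clusters were not called. Mir10a and Mir10b had log2 differences of 0.09 ± 0.15 and -0.12 ± 0.24, with overlapping ranges. Mir196a-2, in the same Hoxc cluster, had 0 counts in all 16 libraries.

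Mir667 lies in the imprinted Dlk1-Dio3 region of chromosome 12 (109720006 to 109720097), whose microRNAs are transcribed from the maternal chromosome and are abundant in neurons. It was present at 366 to 449 CPM in Q140 (median 404) and at 449 to 497 CPM in Q175 (median 468). The groups touched without overlapping, the highest Q140 mouse being just below the lowest Q175 mouse. The change was small, 0.22 ± 0.05 (log2 ± SE), and well estimated (adjusted p = 0.0120). It was 0.24 with L code as a covariate (adjusted p = 0.0317) and 0.20 among L code 7 libraries (adjusted p = 0.602). Of the 37 tested microRNAs of the region, Mir667 was the only call, beside 4.63% called over all microRNAs. The log2 difference was positive for 27 of the 37 (49.1% over all), with a median of 0.06 beside 0.00 over all microRNAs, and ranged from -0.40 to 0.30. Mir665, from the same region, had the other non-overlapping rise, 35.2 to 39.1 CPM in Q140 and 39.3 to 46.8 CPM in Q175. Its log2 difference of 0.17 ± 0.06 had an unadjusted p of 0.00793 and an adjusted p of 0.121.

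Mir467d belongs to a cluster of repeated hairpins inside an intron of Sfmbt2, a Polycomb group gene on chromosome 2. It was at 4.91 to 9.92 CPM in Q140 (median 6.24) and 8.18 to 13.1 CPM in Q175 (median 9.69). The ranges overlapped, yet all Q175 mice were above the median Q140 mouse. Q175 was higher by 0.56 ± 0.15 on the log2 scale (adjusted p = 0.0435). It was 0.47 with L code as a covariate (adjusted p = 0.217) and 0.40 among L code 7 libraries (adjusted p = 0.687). Mir467d was the only microRNA of the Sfmbt2 list among those tested, since the 46 other loci with counts lie outside the microRNAs that the study analyzed. In an edgeR fit of all 1143 transcripts with counts, which made 4 calls (0.350%), Mir669c and Mir467a-1 of this cluster were called. Mir467d was not called in that fit (0.57, adjusted p = 0.157). Mir669c was at 4.89 to 8.03 CPM in Q140 and 9.68 to 13.8 CPM in Q175, with no overlap, and a log2 difference of 0.86 ± 0.14 (adjusted p = 0.00138). The share of the 1143 transcripts without overlap is not given beside this. Mir467a-1 was at 8.0 to 14.6 CPM in Q140 and 13.9 to 21.8 CPM in Q175, with a log2 difference of 0.67 ± 0.14 (adjusted p = 0.0183). The list was made by symbol, and some of its loci, such as Mir466i and Mir467g, are not among the neighbors of Mir467d within 200 kb. The log2 difference was positive for 32 of the 46 other loci of the list, with a median of 0.46, and many of them had few counts. Neither the positive share nor the median over the 1143 transcripts is given beside these values. Some loci, such as Mir466b-7 and Mir466b-5, had identical values, so the 46 are not separate measurements. Summed over the list, the level was 39.7 to 53.8 CPM in Q140, 65.5 to 84.3 CPM in Q175 and 39.7 to 62.0 CPM in the controls. That sum contains the called loci Mir467d, Mir669c and Mir467a-1, and so restates those calls in part. Scaled within each younger age, the sum was 73.3 to 93.5 CPM in Q140 and 80.1 to 98.1 CPM in Q175 at 2 months. At 6 months it was 56.6 to 79.4 CPM in Q140 and 56.5 to 88.7 CPM in Q175. The lines thus overlapped at both younger ages. The hairpins of this cluster are near-identical copies whose reads the counting divides, so the split between single loci is uncertain.

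Mir29b-1 is a member of the Mir29 family, which is known for repressing collagen and other matrix genes and rises in maturing neurons. It was at 99.1 to 156 CPM in Q140 (median 142) and 141 to 236 CPM in Q175 (median 168), and 6 of the 8 Q175 mice were above every Q140 mouse. Q175 was higher by 0.35 ± 0.10 on the log2 scale (adjusted p = 0.0438). It was 0.32 with L code as a covariate (adjusted p = 0.209) and 0.36 among L code 7 libraries (adjusted p = 0.602). Mir29a, 275 bases away, had a log2 difference of -0.01 ± 0.06. The mature miR-29b-3p also comes from Mir29b-2, so reads of this arm are shared between the loci, and Mir29b-2, outside the microRNAs that the study analyzed, was at 551 to 844 CPM in Q140 and 599 to 848 CPM in Q175.

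Mir221 and Mir222, known as repressors of cell cycle inhibitors and induced by growth factor signals in neuronal cells, fell together. Mir221 was at 2038 to 2353 CPM in Q140 (median 2153) and 1724 to 2019 CPM in Q175 (median 1883), with no overlap. Its log2 difference was -0.21 ± 0.04 (adjusted p = 0.0132), a 1.16-fold lower level. Mir222 was at 1646 to 2483 CPM in Q140 (median 1919) and 1482 to 1814 CPM in Q175 (median 1671). Here 8 of 8 Q175 mice were below the median Q140 mouse, but only 3 were below every Q140 mouse, and the log2 difference was -0.24 ± 0.06 (adjusted p = 0.0435). With L code as a covariate the values were -0.23 for both, with adjusted p = 0.0326 for Mir221 and 0.209 for Mir222. Among L code 7 libraries they were -0.19 and -0.25, both with an adjusted p of 0.602.

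Mir132, which promotes dendrite growth and is induced by neuronal activity, was at 5893 to 7998 CPM in Q140 (median 6835) and 5276 to 6444 CPM in Q175 (median 5930). All 8 Q175 mice were below the median Q140 mouse and 4 were below every Q140 mouse. The log2 difference was -0.23 ± 0.06 (adjusted p = 0.0387). It was -0.24 with L code as a covariate (adjusted p = 0.134) and -0.25 among L code 7 libraries (adjusted p = 0.602). Mir212, its neighbor and seed partner, was at 982 to 1428 CPM in Q140 and 1026 to 1249 CPM in Q175. Its log2 difference of -0.13 ± 0.07 did not pass (adjusted p = 0.331). The lowest of the 16 mice for Mir212 was Q140 female 2, and without this mouse the adjusted p was 0.0264. Of the 16 fits that left out 1 mouse, Mir212 passed only in this 1. Over these fits its log2 difference ran from -0.18 to -0.09 and its adjusted p reached 0.608.

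Mir135b lies in an intron of Lemd1 on chromosome 1. It was at 51.4 to 67.3 CPM in Q140 (median 57.1) and 42.3 to 53.1 CPM in Q175 (median 47.2), and 7 of the 8 Q175 mice were below every Q140 mouse. On the log2 scale the difference was -0.30 ± 0.07 (adjusted p = 0.0234), -0.29 with L code as a covariate (adjusted p = 0.134) and -0.29 among L code 7 libraries (adjusted p = 0.602). Its relative Mir135a-2, the other tested member of the family, had a log2 difference of -0.06 ± 0.10 and did not pass.

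Mir375, a microRNA of pancreatic islets and other neuroendocrine cells, had the second smallest p. It was at 72.6 to 122 CPM in Q140 (median 106) and 46.9 to 79.3 CPM in Q175 (median 69.2). Here 6 of the 8 Q175 mice were below every Q140 mouse, and the overlap came from Q140 male 1 and Q140 female 4, at 72.6 and 75.0 CPM. The log2 difference was -0.60 ± 0.11 (adjusted p = 0.00712), a 1.52-fold lower level. It was -0.59 with L code as a covariate (adjusted p = 0.0326) and -0.55 among L code 7 libraries (adjusted p = 0.436). Neither Mir7 locus of the neuroendocrine list passed.

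Mir194-2 and Mir344d-1 also fell. Mir194-2, which shares a transcript with the epithelial and liver microRNA Mir192, was at 67.6 to 81.8 CPM in Q140 and 46.4 to 74.2 CPM in Q175, where 7 of 8 mice were below every Q140 mouse. Its log2 difference was -0.29 ± 0.08 (adjusted p = 0.0435), and that of Mir192, 115 bases away, was -0.11 ± 0.05 (adjusted p = 0.226). The mature miR-194-5p also comes from Mir194-1, and the sum of both loci stood at -0.28 ± 0.08 (adjusted p = 0.0555). Mir344d-1, of a cluster on chromosome 7, was at 186 to 373 CPM in Q140 and 140 to 205 CPM in Q175. Its log2 difference was -0.40 ± 0.11 (adjusted p = 0.0438). With L code as a covariate the log2 differences were -0.34 for Mir194-2 (adjusted p = 0.134) and -0.38 for Mir344d-1 (adjusted p = 0.211), and among L code 7 libraries they were -0.31 (adjusted p = 0.602) and -0.33 (adjusted p = 0.687).

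**Figure D2:**
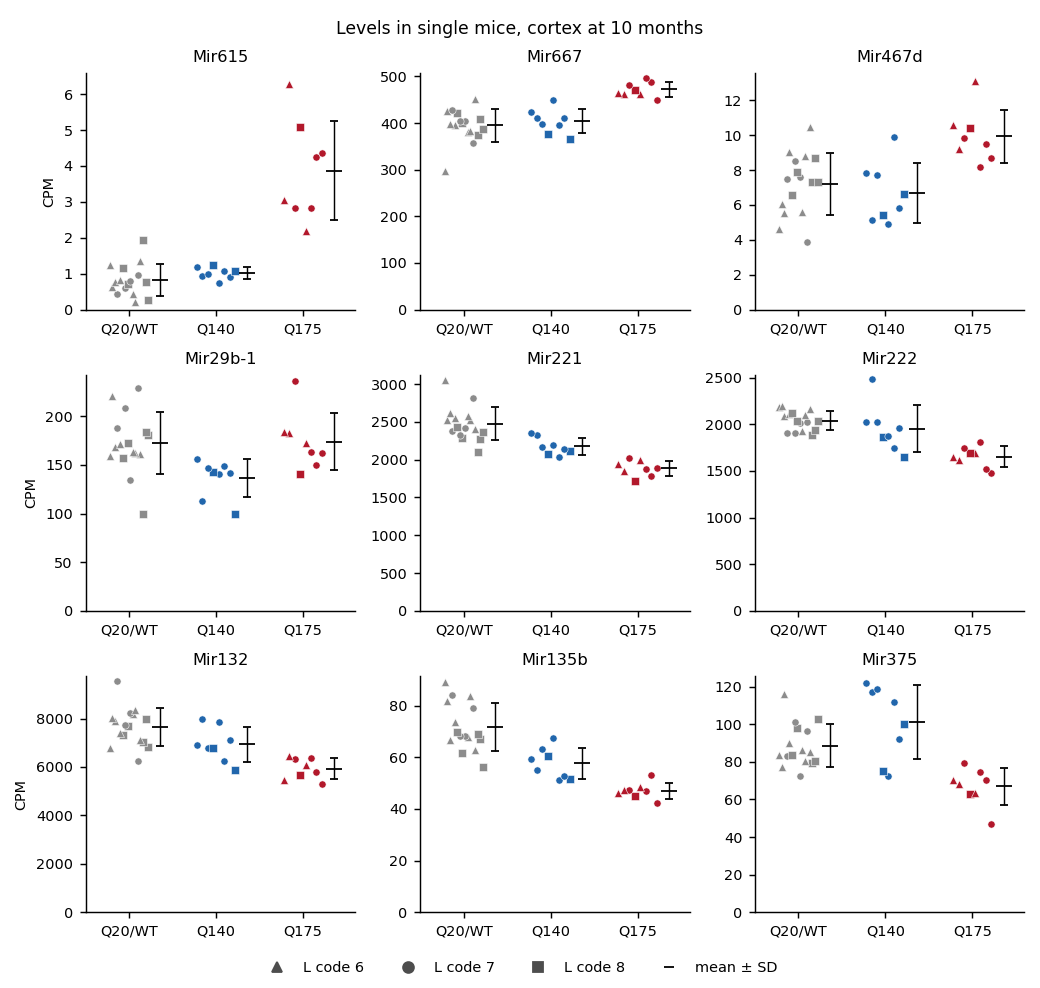
Each point is 1 mouse at 10 months, with its level in CPM, for the 16 controls (Q20 and WT, gray), 8 Q140 (blue) and 8 Q175 mice (red), and the marker shape gives the L code of the library. Black bars are means ± SD. Red and blue points do not overlap for Mir615, Mir667 and Mir221, and Mir135b steps down from a mean of 71.8 CPM in controls to 57.7 in Q140 and 47.1 in Q175.

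The largest of the falling calls belong to the choroid plexus and ciliated cell microRNAs, and in each of them some Q140 mice stood high and all Q175 mice stood low. Against the 16 controls the log2 differences of Q175 were -1.86 ± 0.59 for Mir1912 (adjusted p = 0.0398), -1.52 ± 0.41 for Mir448 (adjusted p = 0.0163), -1.40 ± 0.43 for Mir1298 (adjusted p = 0.0375) and -0.72 ± 0.23 for Mir204 (adjusted p = 0.0398). Those of Q140 were 0.49 ± 0.54, 0.51 ± 0.45, 0.45 ± 0.48 and 0.25 ± 0.28, with adjusted p from 0.751 to 0.822. Mir1912, Mir1298 and Mir448 lie, with Mir1264, in introns of Htr2c, the serotonin receptor gene that the choroid plexus expresses strongly, between 147009441 and 147158321 on chromosome X. Mir204 lies in an intron of Trpm3 on chromosome 19, another gene strong in that epithelium. Mir1298 was at 176 to 1333 CPM in Q140 (median 513) and 126 to 220 CPM in Q175 (median 180). In 5 Q140 mice, females 1 and 3 and males 1, 2 and 4, it stood at 489 CPM or more, and in the other 3 at 176 to 224 CPM, beside the Q175 mice. The log2 difference was -1.82 ± 0.43 (adjusted p = 0.0362).

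Mir448 followed the same mice, at 17.5 to 124 CPM in Q140 and 9.88 to 21.3 CPM in Q175, with a log2 difference of -2.01 ± 0.45 (adjusted p = 0.0288). Mir1912 was at 0.698 to 12 CPM in Q140 and 0.218 to 1.94 CPM in Q175, with -2.36 ± 0.55 (adjusted p = 0.0288) on 1 to 11 counts per Q175 library. Mir204 was at 2747 to 9318 CPM in Q140 and 2486 to 2966 CPM in Q175, with -0.95 ± 0.25 (adjusted p = 0.0482). For all 4 the spread between Q140 mice was wider than between Q175 mice, with SDs of 2578 and 175 CPM for Mir204. Mir1264 (-0.69 ± 0.21, adjusted p = 0.0749), Mir34b (-0.65 ± 0.20, adjusted p = 0.0796) and Mir34c (-0.68 ± 0.25, adjusted p = 0.183), the last 2 known from ciliated cells, did not pass. Mir449a (0.08 ± 0.21, adjusted p = 0.878) and Mir449c (0.42 ± 0.56, adjusted p = 0.765), which the list also holds, had positive differences at low levels and did not pass.

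Of the 13 tested members of this list, 4 were called lower, 0 higher, 10 had a negative difference and the median was -0.65, beside 11 of 324 called lower (3.40%), 165 negative and a median of 0.00 over all microRNAs. The summed level of the list was 3734 to 12618 CPM in Q140, 3474 to 4089 CPM in Q175 and 3551 to 14399 CPM in the controls, so the wide spread of the Q140 mice was also found among controls. Scaled within each younger age, it was 4134 to 8964 CPM in Q140 and 4093 to 7918 CPM in Q175 at 2 months. At 6 months it was 3384 to 7631 CPM (median 4054) in Q140 and 3454 to 7581 CPM (median 4330) in Q175. The narrow range of Q175 was thus seen at 10 months only. Mir211, which shares the seed UCCCUUU with Mir204, was not called. It was at 4.56 to 7.92 CPM in Q140 and at 4.26 to 6.96 CPM in 7 Q175 mice, and at 18 CPM in Q175 male 4. Without Q140 females 1 and 3, the mice with the highest summed levels, Mir615 and Mir667 were the only microRNAs called, in a fit with 2 fewer mice. Log2 differences of lost calls were then 0.70 for Mir467d, 0.42 for Mir29b-1, -0.22 for Mir132, -0.39 for Mir344d-1, -0.27 for Mir194-2 and -0.49 for Mir375. Those of Mir221, Mir222 and Mir135b were -0.16, -0.21 and -0.23, and those of Mir1912, Mir448, Mir1298 and Mir204 were -1.58, -1.24, -1.05 and -0.47. With the summed level as a covariate, Mir615, Mir467d (0.85, adjusted p = 0.0450) and Mir132 (-0.32, adjusted p = 0.0450) were called, and Mir1298 stood at -0.12 and Mir448 at -0.26. That covariate is made of the list's own members, Mir204 above all. With the covariate the log2 differences of Mir375 and Mir221 were -0.41 (adjusted p = 0.164) and -0.19 (adjusted p = 0.135). The part of the choroid plexus content in the other calls was not tested beyond these values.

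**Figure D3:**
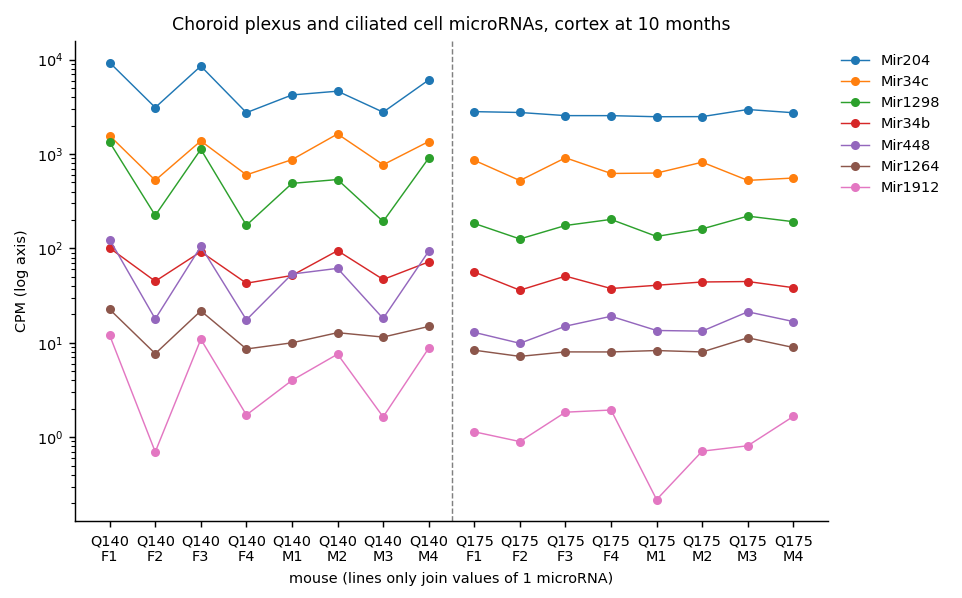
Levels in CPM (log axis) of 7 microRNAs of the choroid plexus and ciliated cell list in each of the 16 mice, with lines that only join the values of 1 microRNA. The same 5 Q140 mice stand high in several of the microRNAs at once, while Mir1298 stays between 126 and 220 CPM in the 8 Q175 mice.

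Markers of other cell types were read beside these. No call fell among the 14 tested neuron-enriched microRNAs (median log2 difference -0.03), the 2 of oligodendrocytes (-0.02), the 3 of microglia and blood leukocytes (0.02), the endothelial one (0.03), the 2 of smooth muscle (-0.18) or the erythrocyte one (-0.15). With 4.63% called over all microRNAs, lists this small can hold no call without differing from the rest. The summed neuron-enriched level was 104594 to 120094 CPM in Q140 and 102081 to 115765 CPM in Q175. The muscle microRNA (0.71) and the liver microRNA (-0.48) tested did not pass either.

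No member of the following families was called, and no family was tested as a whole. Over all 324 microRNAs 4.63% were called, 49.1% were positive and 16.7% had an unadjusted p under 0.05. All 5 tested members of the Mir15 family, which restrains the cell cycle, had a positive difference of 0.13 to 0.24, 3 with an unadjusted p under 0.05 and 0 past FDR 0.05. Of the 13 tested microRNAs of the Mir17-92 cluster and its paralogs, 8 were positive, 4 had an unadjusted p under 0.05 and 0 passed. All 5 tested Mir30 loci were negative, from -0.18 to -0.01, and 0 passed. Of the 8 tested Let-7 loci 7 were positive, with a median of 0.05, and 0 passed. The 6 microRNAs of the Mir99, Mir100 and Mir125 families and the 4 mirtrons and Drosha-independent microRNAs had medians of 0.05 and 0.06 and no call. The Mir181 family had a median of 0.00 over 6 loci and no call. Within it Mir181a-2 was at 94681 to 146309 CPM in Q140 and 107455 to 125608 CPM in Q175 (log2 difference 0.03 ± 0.07, adjusted p = 0.855).

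The remaining microRNAs that were named whatever their values stood close in the 2 lines. Mir674 came nearest to a call, at 290 to 384 CPM in Q140 and 287 to 341 CPM in Q175 (-0.19 ± 0.06, adjusted p = 0.0983). Mir330 (0.10 ± 0.04, adjusted p = 0.208), Mir195a (0.24 ± 0.09, adjusted p = 0.189) and Mir20a (0.21 ± 0.10, adjusted p = 0.298) had an unadjusted p under 0.05. Mir210, Mir3059, Mir125b-1, Mir125b-2, Mir138-2, Mir181a-1, Mir99a, Mir484, Mir708 and Mir186 had log2 differences between -0.06 and 0.13 and did not pass. Among the microRNAs next in p on the rising side, Mir19b-2 (0.28 ± 0.10), Mir137 (0.15 ± 0.06) and Mir505 (0.38 ± 0.14) had adjusted p between 0.173 and 0.175. Summed over its loci, Mir19b was called (0.28 ± 0.07, adjusted p = 0.0360).

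The 16 controls show where each line stood. Against them 0 of 327 microRNAs passed in Q140, with 35 (10.7%) at an unadjusted p under 0.05 and 1 called by DESeq2, and 40 of 327 (12.2%) passed in Q175, 18 higher (5.50%) and 22 lower (6.73%). These comparisons share the controls, and each shares its mutant mice with the comparison that chose these microRNAs. Where Q140 stands relative to the controls therefore also depends on that choice, and the values are set side by side only. Mir135b was 0.30 ± 0.07 lower on the log2 scale in Q140 than in controls (adjusted p = 0.121) and 0.60 ± 0.07 lower in Q175 (adjusted p = 1.32e-06). Mir221 was likewise 0.18 ± 0.05 lower in Q140 (adjusted p = 0.140) and 0.39 ± 0.05 lower in Q175 (adjusted p = 3.81e-06). Mir132 stood at -0.13 ± 0.06 (adjusted p = 0.452) and -0.36 ± 0.06 (adjusted p = 1.21e-04). In these 3 the mean of Q140 lay between those of the controls and Q175.

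A second set had the Q140 mean near that of the controls. Mir615 was at a mean of 0.817 ± 0.441 CPM (SD, n = 16) in controls, 1.01 ± 0.160 in Q140 and 3.86 ± 1.38 in Q175 (SD, n = 8 each). Mir667 was at 395 ± 34.8, 404 ± 25.9 and 472 ± 15.7 CPM, and Mir222 at 2040 ± 106, 1953 ± 252 and 1653 ± 111 CPM. The Q140 mean of Mir222 includes female 2 at 2483 CPM, and 7 of the 8 Q140 mice were below the control median. In a further set the estimates of Q140 and Q175 stood on opposite sides of the controls. Mir375 was 0.21 ± 0.09 higher in Q140 than in controls on the log2 scale (adjusted p = 0.383) and 0.39 ± 0.08 lower in Q175 (adjusted p = 0.00136). Mir344d-1 had the values 0.17 ± 0.08 (adjusted p = 0.452) and -0.23 ± 0.06 (adjusted p = 0.0189). For Mir344d-1 only 5 of the 8 Q140 mice were above the control median, and Q140 female 2 stood at 373 CPM. The rise of Mir29b-1 had another base, since its level was 172 ± 31.5 CPM in controls, 136 ± 19.5 in Q140 and 174 ± 29.2 in Q175. Against controls it was -0.32 ± 0.10 in Q140 (adjusted p = 0.156) and 0.02 ± 0.10 in Q175 (adjusted p = 0.926).

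At younger ages the same comparison gave no call. At 2 months 0 of 326 microRNAs passed (9, or 2.76%, at an unadjusted p under 0.05, and 0 by DESeq2). At 6 months 0 of 325 passed (36, or 11.1%, at an unadjusted p under 0.05), while DESeq2 called 9. Of the 15 microRNAs called at 10 months, 14 had the same sign at 6 months and 8 at 2 months, in mice that did not enter the 10-month comparison. The share of same signs over all microRNAs is not given beside these counts. At 6 months the L codes of the Q140 and Q175 libraries hardly overlapped, so genotype and L code can hardly be told apart at that age. Mir132 stood at -0.20 ± 0.06 at 6 months, Mir222 at -0.15 ± 0.04 and Mir344d-1 at -0.36 ± 0.10, each with an unadjusted p under 0.05 and an adjusted p of 0.133 with edgeR. DESeq2 called all 3 at 6 months. Their 2-month values were between -0.04 and 0.07. Mir615 was at 1.12 ± 0.49 at 2 months (adjusted p = 0.987) and 0.31 ± 0.32 at 6 months (adjusted p = 0.680), on 0 to 15 counts per library. Mir667 and Mir375 stood near 0 at 6 months, with 0.00 ± 0.05 and -0.04 ± 0.11.

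**Figure D4:**
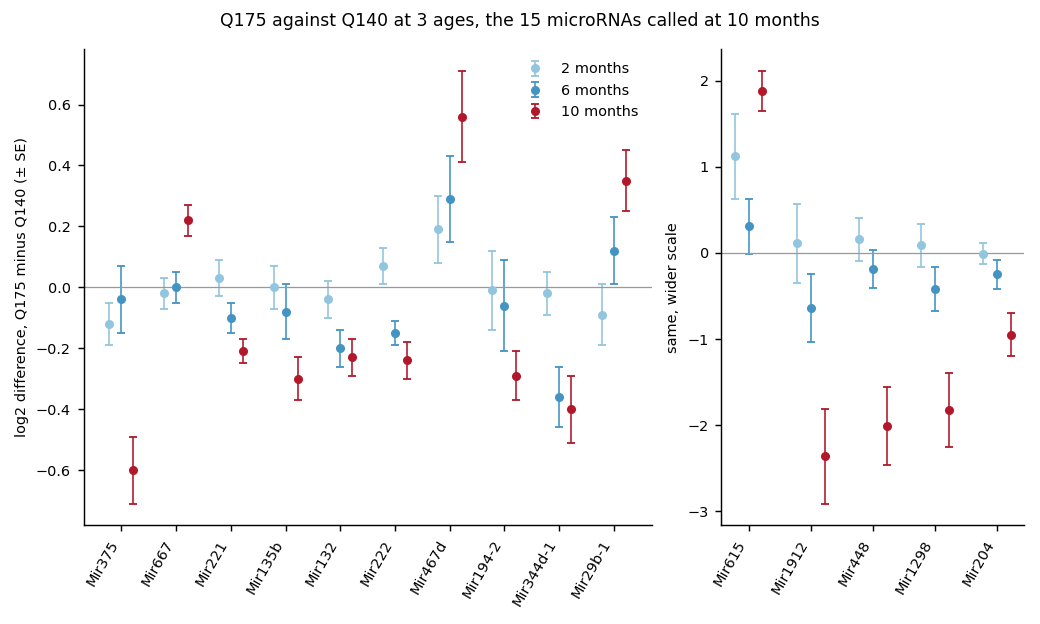
Log2 difference of Q175 minus Q140 (± SE) at 2, 6 and 10 months for the 15 microRNAs called at 10 months, with the 5 that need a wider scale in the right panel. Mir132, Mir222 and Mir344d-1 stand below 0 at 6 and 10 months, and Mir667 and Mir375 leave 0 at 10 months.

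The change of the difference with age was tested directly. Between 2 and 10 months 0 of 326 interactions passed FDR 0.05 with edgeR (36, or 11.0%, at an unadjusted p under 0.05) and DESeq2 called 8. The smallest adjusted p was 0.0611, shared by Mir667 (0.27 ± 0.07), Mir448 (-2.13 ± 0.50) and Mir1298 (-1.92 ± 0.49). Between 6 and 10 months 0 of 325 passed (25, or 7.69%, at an unadjusted p under 0.05), and DESeq2 called Mir667 and Mir448. There Mir615 had an interaction of 1.59 ± 0.40 (adjusted p = 0.109) and Mir132 one of -0.01 ± 0.08 (adjusted p = 1.0). These microRNAs were chosen for their 10-month values, which enter the interactions.

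Sex did not change the difference detectably. None of 324 interactions of genotype and sex passed with edgeR or DESeq2, and 16 (4.94%) had an unadjusted p under 0.05 with edgeR. For Mir615 the log2 difference was 0.08 smaller in males with an SE of 0.54, for Mir375 it was 0.09 higher with an SE of 0.23, and for Mir667 0.03 higher with an SE of 0.09. With 4 mice of each sex and genotype the intervals are wide for the microRNAs with few counts.

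The single calls differed in how much they rested on single mice and on the L code. Mir615, Mir375 and Mir667 passed FDR 0.05 in all 16 fits that left out 1 mouse. Mir221 passed in 10 of these, Mir135b in 7, Mir448 in 6 and Mir1912 in 5, and each other call in 4 or fewer, down to 1 for Mir467d and Mir194-2. The sign of all 15 stayed the same in every one of these fits. With L code as a covariate the calls were Mir615, Mir667, Mir375 and Mir221, and among the 6 Q140 and 4 Q175 libraries of L code 7 only Mir615 passed, in a fit with 6 fewer mice.

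**Figure D5:**
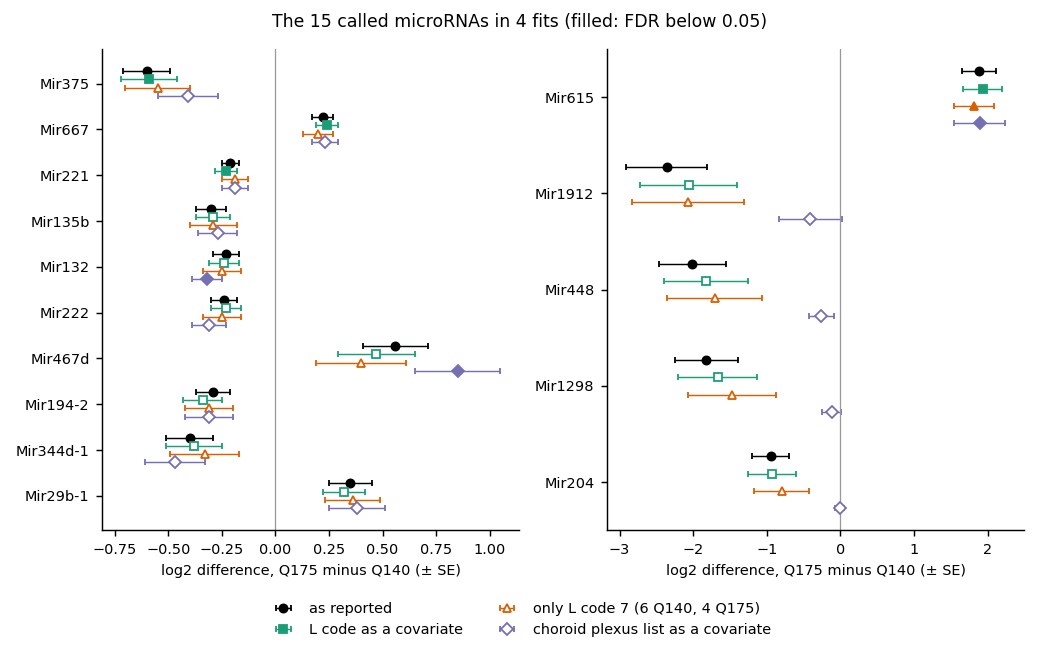
Log2 difference of Q175 minus Q140 (± SE) of the 15 called microRNAs in 4 fits, with filled markers for an FDR below 0.05. Adding the L code or keeping only L code 7 libraries leaves every sign as it was, and the summed choroid plexus list as a covariate takes Mir1298 from -1.82 to -0.12 and leaves Mir615 at 1.89.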

How the data were processed

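Small RNA of cortex was sequenced from 8 Q175 and 8 Q140 mice at 10 months, and the same lines at 2 and 6 months and 16 controls were used for further comparisons. The authors extracted total RNA with miRNeasy, sequenced stranded small RNA as single ends (base calls with CASAVA 1.8.2 per the submitters' processing notes), clipped the reads and aligned them with STAR to mm10. The authors deposited an estimated count per Ensembl transcript, not normalized. The methods name HTSeq. The deposited FPKM were not used. Counts were rounded to whole numbers, and 48.1% of values above 0 were not whole. GENCODE vM21 of GRCm38 named 1228 of 1626 transcripts, and 329 of the 480 microRNAs that the study analyzed matched by symbol. Those with at least 1 count in a fit were tested.

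Fits used edgeR 4.0.16 in R 4.3.3 (TMM on library totals over all transcripts, robust quasi-likelihood F test). Sex was the covariate, joined at 6 months by the LB or V code of the library, and the FDR threshold was 0.05. The 10-month control titled Q20 female 5 entered the fits as male, the sex of the other mice with its animal code. SEs follow from the coefficient and F. Levels are TMM-normalized CPM over the 32 libraries of the 10-month groups. Nothing in the labels says more of how replicates were separated than that they are different mice. The code was tested on simulated data. The members and lists were chosen with earlier results of these data known. The microRNAs named were the 15 rising and 15 falling calls of smallest p (to at least 8 a side, if p was under 0.05), 23 fixed ones and each call of a comparison with 5 or fewer. Markers that were listed, Mir669c and Mir467a-1, and neighbors were also named. Alternatives were RLE, library totals alone, DESeq2 1.42.0, filterByExpr, all transcripts, summed loci, no sex covariate, L code, only L code 7, all 10-month genotypes, a replicate block, the steps of the methods and leaving out each mouse. Both choroid plexus alternatives were added after seeing the data. Intervals and SEs do not cover biases of the library preparation.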

Additional observations from a re-analysis of the deposited data

Results flagged for a closer look

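In groups of 8 mice, a mouse was singled out where its gap to the nearest other mouse as a share of the group's range exceeded Dixon's 95% critical value. This happened in 7 of 72 groups, where chance gives about 1 in 20. Of these, 5 were Q140 female 2, with Mir222 at 2483 CPM, Mir344d-1 at 373 CPM, Mir181a-1 at 9678 CPM, Mir181a-2 at 146309 CPM and Mir125b-2 at 9687 CPM. The first 4 values were the highest of the Q140 mice and the last the lowest. Without this mouse 21 microRNAs were called, 13 of them among the 15, and Mir222 and Mir344d-1 kept negative differences in every fit that left out 1 mouse. Mir29b-1 was at 236 CPM in Q175 female 3 and Mir19b-2 at 30.4 CPM in Q140 female 3, the highest and lowest of their groups. Outside the microRNAs that the study analyzed, Mir669c and Mir467a-1 of the Sfmbt2 cluster were higher in Q175 by 0.86 and 0.67 on the log2 scale.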

How the results depend on the processing

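The count of 15 calls moved to 9 with filterByExpr, 7 with library totals alone, 4 in the fit of all 1143 transcripts (Mir615, Mir375, Mir669c and Mir467a-1), 4 with L code as a covariate, 1 with only L code 7 and 24 with the steps of the methods. It was 2 without the 2 Q140 libraries highest in the choroid plexus list and 3 with that list as a covariate, both chosen after seeing the data. Leaving out 1 mouse gave 3 to 21 calls, and 10 of the 16 fits gave 5 or fewer. The mice were Q140 females 1 and 3 and males 1 and 4 and Q175 females 1, 2 and 3 and males 1, 2 and 4, with 3 calls (Q140 female 1, males 1 and 4, Q175 females 1 and 3, male 2), 4 calls (Q140 female 3, Q175 female 2, male 4) or 5 calls (Q175 male 1). Without Q140 male 3, Q175 female 4 or Q175 male 3 there were 9, 8 and 7 calls. The cause was not tested. Under the methods' steps, whose beta prior shrinks differences, Mir615 stood at 0.38. Those steps also removed 1 of the 16 libraries as an outlier and replaced 21 counts among the 16. Their 24 calls therefore do not rest on the same mice and counts as the main fit. RLE, DESeq2, summed loci, no sex covariate and all 10-month genotypes gave 12 to 19 calls. With the replicate block there were 11 calls, 9 of them among the 15. Same-numbered mice of the 2 lines correlated above 0.1 in 5 of 8 pairs. No values of differently numbered mice are given beside these, so they cannot decide whether the numbers mark pairs. The main fit did not pair the mice. The sign of the 15 calls stayed the same in all 446 fits of them, 233 of which did not pass FDR 0.05. Signs turned for microRNAs that were not called: Mir484 (-0.03 to 0.07 over the mice left out) was -0.05 both with L code as a covariate and under the methods' steps, -0.08 with only L code 7 and -0.03 without Q140 female 2. Mir99a (-0.02 to 0.06) was -0.02 without Q175 male 3 and under the methods' steps, Mir181a-2 -0.07 with the choroid plexus list as a covariate, Mir10b (-0.21 to 0.05) 0.05 without Q175 female 3, and Mir708 (-0.04 to 0.02) 0.01 without Q140 female 1, Q140 male 1 or Q175 male 2 and 0.02 without Q175 female 1. DESeq2 called 9 at 6 months, 8 and 2 interactions with age (2 and 10, 6 and 10 months) and 1 in Q140 against controls, where edgeR called 0. All other counts stayed within 1.5 times. Depth limits Mir615 and Mir1912 most.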
